A study of Mus musculus with 12 samples.

Results

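BTB zinc finger proteins are transcription factors that carry a BTB domain at one end and C2H2 zinc fingers at the other. The accessible chromatin around 41 protein-coding mouse genes was measured in thymic iNKT1, iNKT2 and iNKT17 cells of C57BL/6 and Hivep3-/- mice. The genes were taken by name: every GENCODE vM21 symbol made of Zbtb and a digit, with Bcl6 and Patz1 added, and with Zbtb16 and Zbtb7b left out. A region was counted at a gene when it overlapped the gene body or the 10 kb on either side of it. All 41 genes had at least 1 region, and together they held 200 different regions of the 63309 in the table. One gene, Zbtb8os, matched by name only, since it is the neighbour of Zbtb8a and encodes no BTB zinc finger protein.

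The BTB domain pairs these proteins with each other and docks corepressors such as NCoR and BCOR, while the zinc fingers choose the DNA sites. Most members are repressors, and several decide between lymphocyte fates. Zbtb16, which encodes PLZF, is the defining factor of innate-like T cells, and Zbtb7b, which encodes ThPOK, directs the CD4 lineage. Among the genes described here, Bcl6 is the master regulator of follicular helper T cells and germinal centre B cells, Patz1 (also called MAZR) represses Zbtb7b and helps to set CD8 fate, and Zbtb7a (LRF) acts with ThPOK in CD4 cells. Zbtb17 (Miz-1) is needed by early lymphocytes, Zbtb1 by lymphoid precursors, Zbtb32 (PLZP) restrains lymphocyte proliferation, Zbtb20 acts in plasma cells, and Zbtb46 marks classical dendritic cells.

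Invariant natural killer T (iNKT) cells are αβ T cells that see lipids on CD1d and mature in the thymus into subsets that make mainly IFN-γ (iNKT1), IL-4 (iNKT2) or IL-17 (iNKT17). The 6 groups were untreated C57BL/6 wildtype and Hivep3-/- iNKT1, iNKT2 and iNKT17 cells from thymocytes of mice aged 8-9 weeks, with 2 libraries each (12 in all). Subsets were sorted from pooled thymi by CD122, ICOS, Izumo1r and CD138, mixed for a common transposition, and sorted apart again by ICOS and CD138 alone. Hivep3-/- mice lack a zinc finger protein of another class and were backcrossed to C57BL/6, and which part of the gene was deleted is not given in the sources used here. The labels number mice and the methods speak of pools, so p-values measure only the spread between these libraries, part of which may be technical. Sorted subsets are mixtures, and in such libraries a region open in fewer cells and a region less open in each cell cannot be told apart.

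Each value is the log2 of normalised transposase insertions per kb in 1 region of 500 bp, so levels can be compared between regions. Distances in the text run from the edge of a region to the nearest annotated start of the gene. Sequencing depth could not be read from the normalised table. The labels were checked on promoters of marker genes. The summed linear level of 4 iNKT17 marker promoters (Sdc1, Il17rb, Ccr6 and Il23r) was 148.8 to 170.6 in iNKT17 libraries against 36.7 to 47.5 in the others, and the sums over 4 iNKT1 and 4 iNKT2 marker promoters were also highest in their own subset, without overlap. Of the single markers, the Il17rb promoter (4.64 to 5.13 in iNKT17, 4.47 to 5.11 elsewhere) and the iNKT2 marker promoter of Icos (5.33 to 5.65 in iNKT2, 5.25 to 5.65 elsewhere) overlapped between subsets and did not check the labels. The study reported raised Il17rb transcripts in a cluster of iNKT2 cells, so that gene is not particular to iNKT17. All 4 T-cell marker promoters were accessible. Of 5 B-cell and 5 dendritic cell or macrophage markers, 2 of each had a promoter region (Ebf1 and Pax5, Flt3 and Spi1), and none of the 5 double-positive thymocyte or 2 natural killer cell markers had one. The summed dendritic cell and macrophage promoters were higher in iNKT1 (42.2 to 56.4) than in iNKT2 (26.2 to 32.9) and iNKT17 (20.2 to 24.8), the B-cell sum was lower in iNKT1 (14.3 to 19.7, against 26.9 to 36.2), and their part in the results was not tested. The targeted gene did not check the genotype: its promoter measured 6.36 to 6.72 in all 12 libraries, and 0 of its 21 regions were called between genotypes.

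The 200 regions made 219 pairs of gene and region, since 19 regions lay at both members of a neighbouring pair (Zbtb1 with Zbtb25, Zbtb6 with Zbtb26, or Zbtb8a with Zbtb8os). Of the pairs, 84 were at a promoter (within 1000 bp of an annotated start of the gene), 13 in an exon, 41 in an intron, 41 in the upstream and 40 in the downstream flank. In 51 pairs the region was also within 1000 bp of the start of another gene, so it may belong to that gene. Zbtb1 had 15 regions, Zbtb25 had 14 and Zbtb38 had 13, whereas Zbtb45, Zbtb49 and Zbtb8b had 1 each, and the median was 5. Own promoters made up 40.0% of the regions, and 33.5% of all regions in the table lay at a promoter of some protein-coding gene.

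The sequences that carry the main findings are printed here, each the central 300 bases of its region on the plus strand of GRCm38.p6 (mm10). The windows of Zbtb24, Zbtb7a, Zbtb10 and Zbtb9 were most open in 1 subset, as was the first of the Zbtb38 windows. The Bcl6 window had its lowest mean in iNKT17 in both genotypes and was also low in C57BL/6 iNKT1. The genotype difference at the second Zbtb38 window differed between subsets. Capitals mark matches, on either strand, to any of 6 short motifs: AGGTCA (nuclear receptor half-site), AGGTGTGA (T-box), AACCACA (Runx), TGANTCA (AP-1), TTCNNNGAA (STAT) and TCAAAG (TCF). A match is a description of the letters and not a bound site.
Zbtb24 chr10:41453498-41453797: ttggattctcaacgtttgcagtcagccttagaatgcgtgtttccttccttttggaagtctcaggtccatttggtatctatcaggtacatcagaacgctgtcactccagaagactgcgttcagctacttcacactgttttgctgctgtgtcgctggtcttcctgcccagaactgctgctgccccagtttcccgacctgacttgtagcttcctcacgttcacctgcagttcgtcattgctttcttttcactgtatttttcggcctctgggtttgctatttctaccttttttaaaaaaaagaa
Zbtb7a chr10:81133384-81133683: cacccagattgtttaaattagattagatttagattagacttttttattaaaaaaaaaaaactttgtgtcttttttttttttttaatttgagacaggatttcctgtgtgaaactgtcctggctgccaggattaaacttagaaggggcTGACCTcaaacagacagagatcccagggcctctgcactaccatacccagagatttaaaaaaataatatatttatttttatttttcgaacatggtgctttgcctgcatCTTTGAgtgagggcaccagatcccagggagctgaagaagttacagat
Zbtb10 chr3:9270826-9271125: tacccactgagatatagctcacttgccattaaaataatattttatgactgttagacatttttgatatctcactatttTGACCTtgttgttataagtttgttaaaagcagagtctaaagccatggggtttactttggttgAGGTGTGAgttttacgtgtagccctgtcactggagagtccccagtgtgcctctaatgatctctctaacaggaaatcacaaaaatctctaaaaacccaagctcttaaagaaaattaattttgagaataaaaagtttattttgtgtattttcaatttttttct
Zbtb38 chr9:96714113-96714412: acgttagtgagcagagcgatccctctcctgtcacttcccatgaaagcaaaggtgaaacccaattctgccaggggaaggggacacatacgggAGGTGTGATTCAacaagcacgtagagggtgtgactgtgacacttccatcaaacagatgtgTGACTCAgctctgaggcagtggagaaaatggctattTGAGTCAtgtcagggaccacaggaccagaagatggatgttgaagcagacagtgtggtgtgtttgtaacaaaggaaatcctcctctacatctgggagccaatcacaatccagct
Zbtb9 chr17:26981167-26981466: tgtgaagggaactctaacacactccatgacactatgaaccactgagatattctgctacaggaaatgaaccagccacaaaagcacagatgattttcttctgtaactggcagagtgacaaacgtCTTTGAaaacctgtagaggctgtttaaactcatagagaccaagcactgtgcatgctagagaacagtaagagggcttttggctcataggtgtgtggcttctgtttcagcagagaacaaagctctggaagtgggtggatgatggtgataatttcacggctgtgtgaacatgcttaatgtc
Bcl6 chr16:23997262-23997561: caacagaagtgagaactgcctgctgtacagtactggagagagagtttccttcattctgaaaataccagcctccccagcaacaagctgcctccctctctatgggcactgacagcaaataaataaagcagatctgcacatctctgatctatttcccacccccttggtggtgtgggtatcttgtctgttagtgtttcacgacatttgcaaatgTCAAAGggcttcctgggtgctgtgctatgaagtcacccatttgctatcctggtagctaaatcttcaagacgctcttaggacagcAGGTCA
Zbtb38 chr9:96699687-96699986: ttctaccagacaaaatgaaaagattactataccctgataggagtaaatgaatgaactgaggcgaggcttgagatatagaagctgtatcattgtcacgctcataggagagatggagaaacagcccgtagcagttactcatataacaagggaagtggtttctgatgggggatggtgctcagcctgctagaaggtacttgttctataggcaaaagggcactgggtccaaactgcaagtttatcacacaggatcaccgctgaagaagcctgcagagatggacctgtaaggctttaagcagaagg

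The Zbtb38 window at chr9:96714113-96714412 held 3 AP-1 matches and 1 T-box match, of which the T-box match and 1 AP-1 match overlapped. The Zbtb10 window held 1 T-box match and 1 nuclear receptor half-site, the Zbtb7a and Bcl6 windows each held 1 half-site and 1 TCF match, and the Zbtb9 window held 1 TCF match. The Zbtb24 window and the Zbtb38 window at chr9:96699687-96699986 held none of the 6 motifs. Over the central 300 bases of all 200 regions, the T-box motif was present in 3.5% (2.08% of all 63309 regions), the half-site in 15% (17.6%), the Runx motif in 10.0% (13.7%), the AP-1 motif in 7.5% (11.5%), the STAT motif in 8.0% (7.95%) and the TCF motif in 21.5% (20.5%). Of the 27 regions that differed between C57BL/6 subsets (described further on), the TCF motif was in 6 of the 9 that were highest in iNKT2, in 2 of the 8 highest in iNKT1 and in 1 of the 10 highest in iNKT17. The half-site was in 4 of the 8 highest in iNKT1, in 1 of the 9 highest in iNKT2 and in 2 of the 10 highest in iNKT17. In the same order, T-box was in 2, 0 and 1, Runx in 2, 1 and 1, AP-1 in 1, 1 and 0 and STAT in 2, 0 and 1. These counts are small. The shares among all regions of the table highest in each subset were not computed.

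At the promoters, nearly every member was open in every subset. A promoter region was present for 40 of the 41 genes (38 different regions, since 2 were shared), and for 38 of the genes it stayed at or above the accessible level (linear 5, log2 2.32) in all 12 libraries. For genes with several promoter regions, the most accessible is given. The median promoter measured 6.06, a level that 88.1% of all regions in the table did not reach. Its median range over the 12 libraries was 0.56, against 1.43 over all regions, and 28 of the 40 promoters varied by under 1. Over all 80 promoter regions of the members, without this choice, the median level was 5.10 and the median range 0.85. Level and range were not compared with those of promoters of other genes. The most accessible was that of Zbtb20, at 8.27 to 8.46. Zbtb5, Zbtb18, Zbtb8os and Zbtb10 followed.

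**Figure D1:**
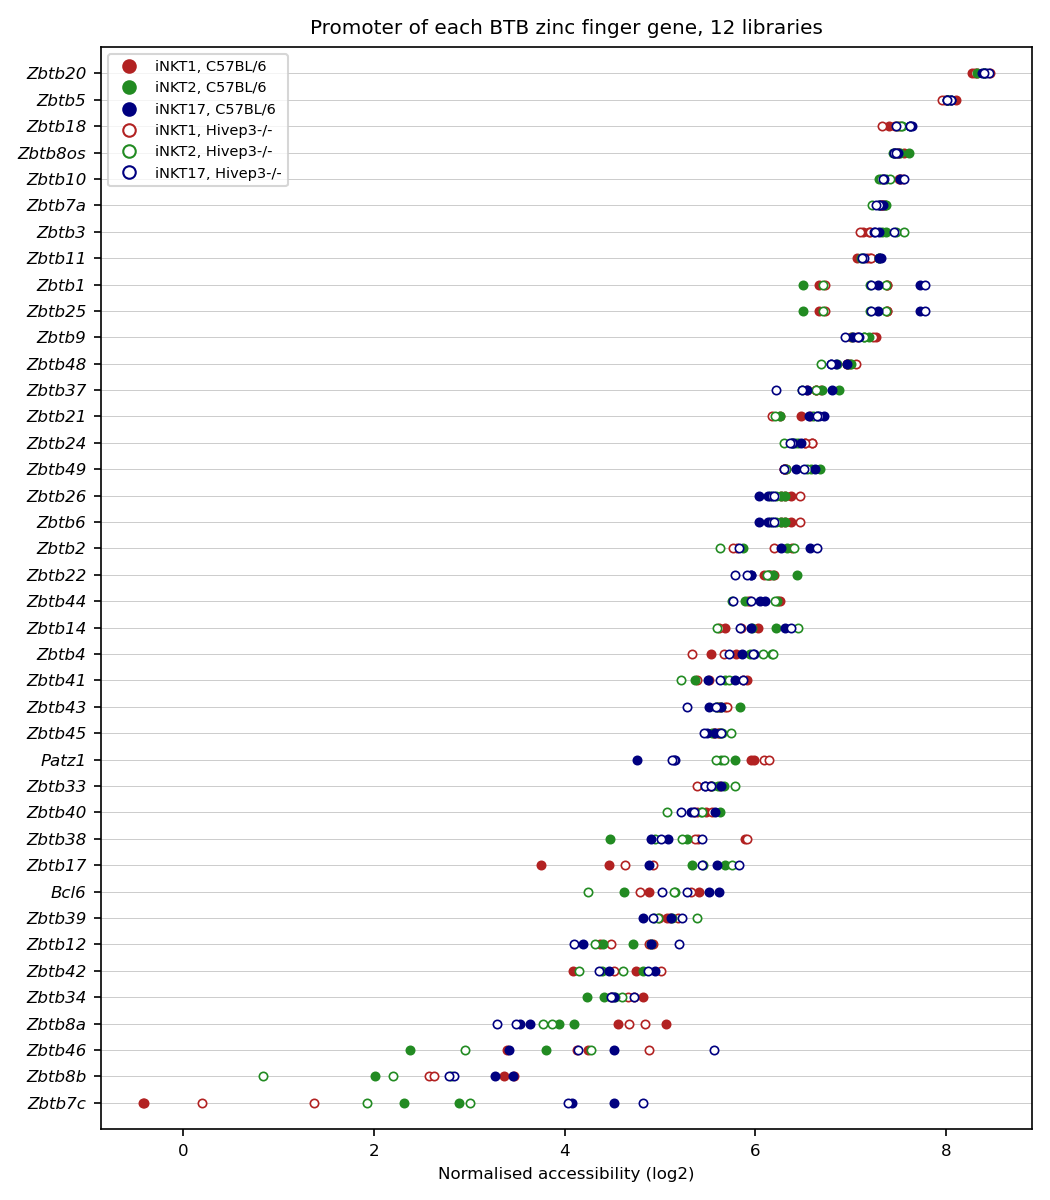
Most accessible promoter region of the 40 BTB zinc finger genes that had one, ordered by mean. The x axis gives log2 normalised accessibility, and each point is 1 of 12 libraries (filled, C57BL/6, and open, Hivep3-/-, coloured by subset). Points of most genes lie close together, from Zbtb20 at 8.27 to 8.46 down to Zbtb7c, which spreads from -0.42 to 4.82 by subset.

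The promoters of the genes with known lymphocyte roles were open throughout. The Bcl6 promoter measured 4.25 to 5.62 over the 12 libraries, and its C57BL/6 difference of -0.67 ± 0.28 between iNKT2 and iNKT17 was past an adjusted p of 0.1 (limma, adjusted p = 0.0625) with overlapping libraries over the genotypes. The shared promoter of Zbtb1 and Zbtb25 measured 6.50 to 7.78, that of Zbtb24 6.30 to 6.60, and the most accessible promoter region of Zbtb7a 7.22 to 7.37. Zbtb32 had no promoter region, and its nearest region, 1008 bp upstream of the start, is described with the iNKT2 regions.

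Differences between the C57BL/6 subsets at promoters were mostly below 3-fold. At an adjusted p under 0.1 (limma, any fold), iNKT1 differed from iNKT2 at 19 of 77 promoter regions and from iNKT17 at 22 of 79, and iNKT2 differed from iNKT17 at 18 of 80. Of all tested regions at a promoter of any protein-coding gene, 37.4%, 39.7% and 33.2% did so. At 3-fold 1, 4 and 4 member promoter regions remained, against 4.65%, 6.48% and 4.49% of all promoter regions. The Patz1 promoter was lower in iNKT17, at 4.76 and 5.16 in C57BL/6 and 5.15 and 5.13 in Hivep3-/-, while the iNKT1 and iNKT2 libraries ranged from 5.59 to 6.15. In C57BL/6 cells it was 1.01 ± 0.13 (SE) higher in iNKT1 than in iNKT17 (limma, adjusted p = 1.54e-05) and 0.76 ± 0.13 higher in iNKT2 than in iNKT17 (limma, adjusted p = 0.000241). The more accessible of the 2 promoter regions of Zbtb17 was lower in iNKT1, at 3.75 and 4.47 in C57BL/6 and 4.63 and 4.93 in Hivep3-/-, against 5.33 to 5.75 in iNKT2 and 4.88 to 5.83 in iNKT17. In C57BL/6 its difference was -1.40 ± 0.26 between iNKT1 and iNKT2 (limma, adjusted p = 0.00053) and -1.13 ± 0.26 between iNKT1 and iNKT17 (limma, adjusted p = 0.00216), below 3-fold in both. The promoters of Zbtb38 and Zbtb8a were higher in iNKT1, by 0.76 and 0.79 over iNKT2 (limma, adjusted p = 0.025 and 0.00259) and by 0.65 and 1.23 over iNKT17 (limma, adjusted p = 0.048 and 6.84e-05).

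Zbtb7c, a relative of Zbtb7a and Zbtb7b, was the exception among the promoters. Its start-site region measured 4.03 to 4.82 in the 4 iNKT17 libraries, 1.93 to 3.00 in iNKT2 and -0.42 to 1.38 in iNKT1, so the subsets did not overlap. The promoters of Zbtb8b and Zbtb46 were also low, with means over the 12 libraries of 2.69 and 3.98. The Zbtb46 promoter, at 2.38 to 5.57, was higher in replicate 2 than in replicate 1 of every group, by 0.75 to 1.43. Without a term for the replicate number, 1 of its 13 comparisons passed the test, that of iNKT2 with iNKT17 in Hivep3-/- (-1.24 ± 0.58; limma, adjusted p = 0.0962). In the fit blocked on that number, which pairs same-numbered subsets of 1 genotype, the Zbtb46 promoter was lower in iNKT2 than in both other subsets. In C57BL/6 it was 0.73 ± 0.19 higher in iNKT1 than in iNKT2 and differed by -0.87 ± 0.19 between iNKT2 and iNKT17 (limma with the block, adjusted p = 0.00235 and 0.000583). In Hivep3-/- the same differences were 0.89 ± 0.19 and -1.24 ± 0.19 (limma with the block, adjusted p = 0.000342 and 1.15e-05). Hivep3-/- libraries were above the same-numbered C57BL/6 libraries in each subset, with an average difference of 0.70 (limma, adjusted p = 0.197), but the labels do not pair mice of different genotypes.

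The comparison of the subsets asked which regulatory regions of the family are particular to a lineage. A region was called where the groups differed by at least 3-fold with a Benjamini-Hochberg adjusted p under 0.1 (limma, adjusted over all regions tested). In C57BL/6 cells, 11 of 192 member regions were called between iNKT1 and iNKT2 (5.73%, against 16.0% of all regions tested), 5 higher in iNKT1 (7.32% of all) and 6 lower (8.71% of all). Between iNKT1 and iNKT17, 19 of 194 were called (9.79%, against 20.5%), 8 higher in iNKT1 (9.72% of all) and 11 lower (10.8% of all). Between iNKT2 and iNKT17, 15 of 194 were called (7.73%, against 16.2%), 8 higher in iNKT2 (7.72% of all) and 7 lower (8.49% of all). The shares were thus below the background in each comparison. At any fold, an adjusted p under 0.1 was reached by 88 (45.8%, against 55.3%), 82 (42.3%, against 58.5%) and 73 regions (37.6%, against 52.4%).

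**Figure D2:**
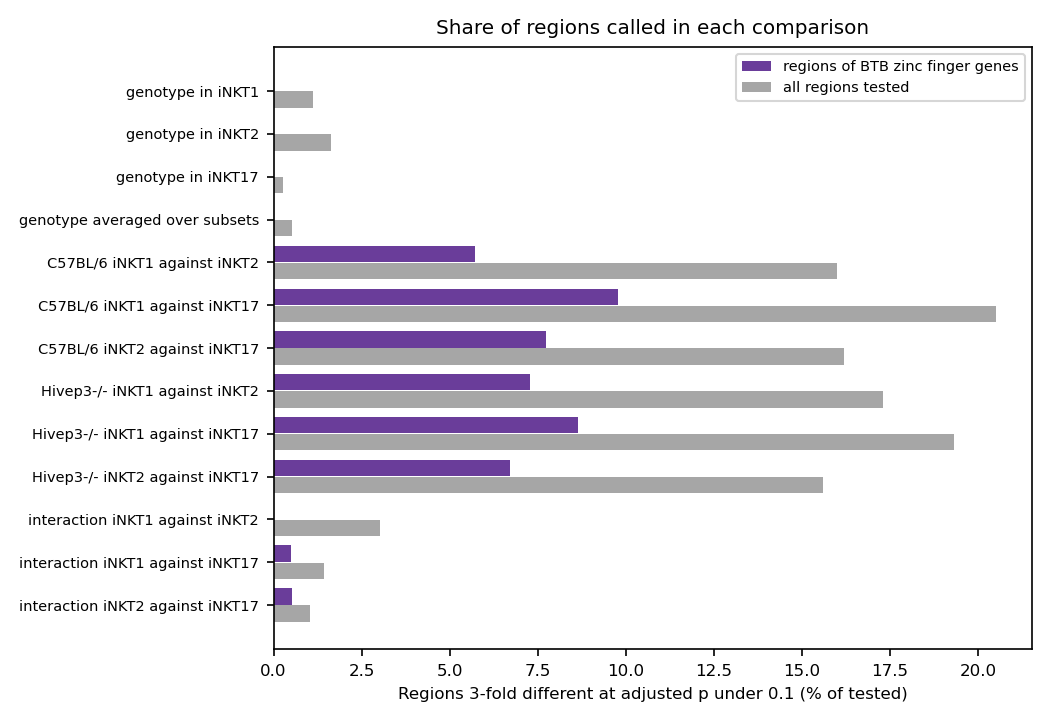
Share of tested regions, in percent on the x axis, that differed at least 3-fold at an adjusted p under 0.1 in each of the 13 comparisons. Bars show regions of the BTB zinc finger genes (purple) and all regions tested (grey). The purple bars are the shorter of each pair, and are at 0 in the 4 genotype comparisons and 1 interaction.

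In all, 27 regions at 18 members were called in at least 1 C57BL/6 comparison (13.5%, against 29.2% of all regions in the table), and 23 members had none. They included 4 of the 80 promoter regions (5.0%) and 23 of the 120 others (19.2%). Over the whole table, 9.58% of regions at a protein-coding promoter and 39.1% of the others were called in this way. The 120 member regions included some at the promoter of another gene, which the others of the whole table did not. The shares of 19.2% and 39.1% are therefore not from like sets. By mean level, 8 of the 27 were highest in iNKT1, 9 in iNKT2 and 10 in iNKT17.

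**Figure D3:**
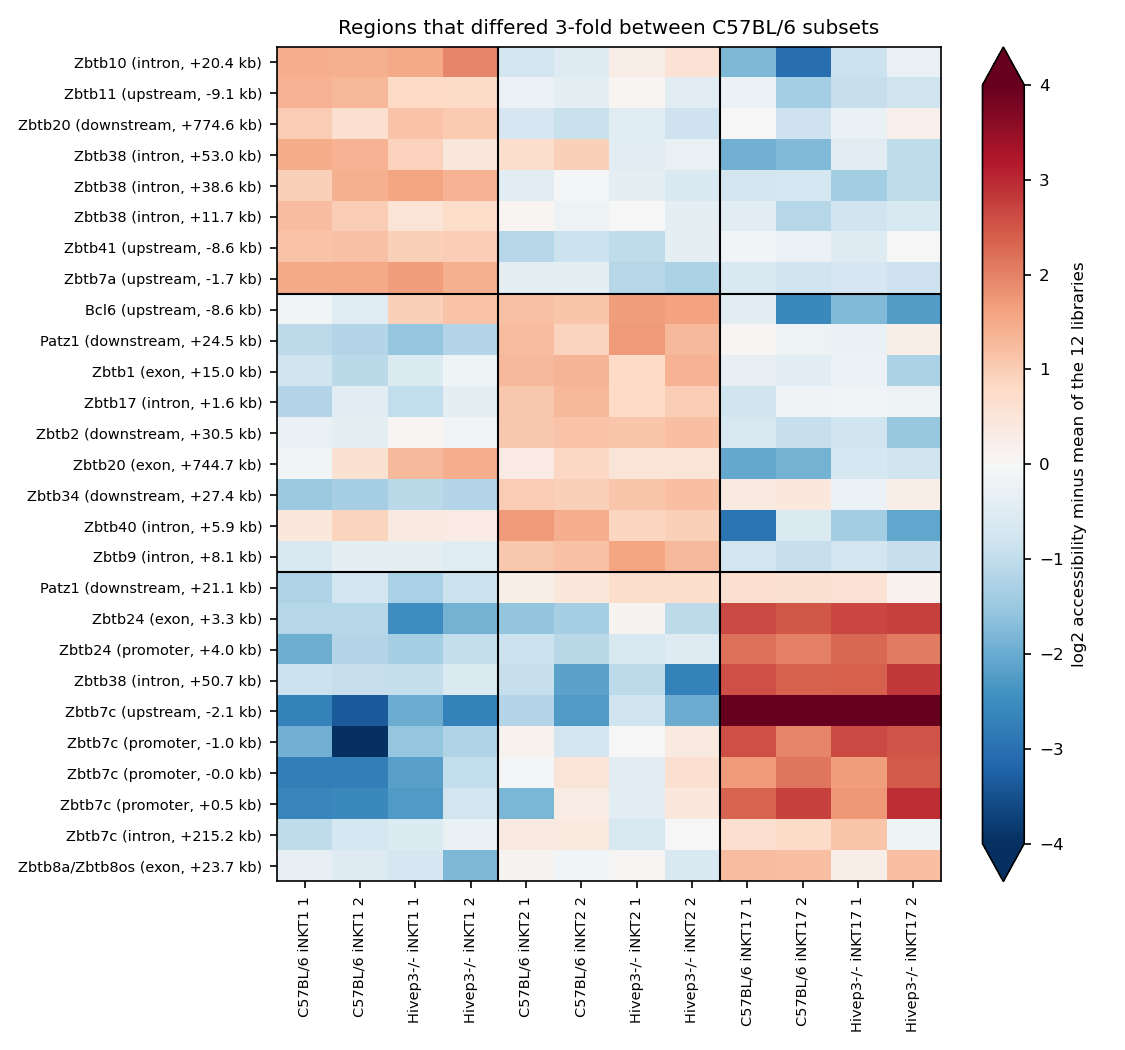
The 27 regions called between C57BL/6 subsets (rows, with the gene, the location and the distance of the region's centre from the 5′ end of the gene) in the 12 libraries (columns). Colour gives log2 accessibility minus the mean of the 12 libraries, and lines separate regions and libraries by subset. The 5 Zbtb7c and 2 Zbtb24 regions are red in all 4 iNKT17 columns apart from the Zbtb7c intron in 1 Hivep3-/- library.

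The largest differences were iNKT17 openings at Zbtb7c. All 5 regions of the gene were called, 3 of them at its promoter. The region 1822 bp upstream of the start (chr18:75817857-75818356) measured 3.87 and 3.74 in iNKT17 cells of C57BL/6 mice and 3.72 and 3.96 in those of Hivep3-/- mice, whereas the 8 other libraries lay between -3.79 and -1.22. Of those 8, 2 were at the lowest value of their library, so the fitted differences of -7.26 ± 0.69 (iNKT1 minus iNKT17) and -5.95 ± 0.69 (iNKT2 minus iNKT17) depend on the normalisation constant (limma, adjusted p = 1.26e-06 and 1.20e-05). The region at the start site was also called between iNKT1 and iNKT2, at -3.02 ± 0.44 (limma, adjusted p = 7.35e-05). Its iNKT2 to iNKT17 difference of -1.69 ± 0.44 (limma, adjusted p = 0.00585) fell below 3-fold without C57BL/6 iNKT2 replicate 1 (-1.41) or without C57BL/6 iNKT17 replicate 2 (-1.47).

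Zbtb24, a gene mutated in an immunodeficiency with centromere instability, had 2 iNKT17 regions downstream of an evenly open promoter. The first, in an exon (chr10:41453398-41453897), measured 4.13 and 3.97 in C57BL/6 and 4.15 and 4.24 in Hivep3-/- iNKT17 cells, while none of the other 8 libraries passed 1.60. It was -3.69 ± 0.40 for iNKT1 minus iNKT17 and -4.01 ± 0.40 for iNKT2 minus iNKT17 in C57BL/6 (limma, adjusted p = 3.91e-06 and 2.94e-06). The second, 538 bp from the start of a further transcript (chr10:41454174-41454673), measured 3.55 to 3.83 in iNKT17 and -0.42 to 1.02 elsewhere. No iNKT17 library overlapped any other library at either region.

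Zbtb38, which encodes a protein that binds methylated DNA, held 4 called introns with different patterns within 1 gene. The intron region at chr9:96701875-96702374 was an iNKT17 region, at 5.04 and 4.85 in C57BL/6 and 4.86 and 5.29 in Hivep3-/- against -0.22 to 1.90 in the rest. Its C57BL/6 differences were -3.37 ± 0.47 (iNKT1 minus iNKT17) and -4.00 ± 0.47 (iNKT2 minus iNKT17; limma, adjusted p = 4.13e-05 and 1.32e-05). Of the others, 2 were iNKT1 regions. The one at chr9:96714013-96714512 measured 3.19 to 3.82 in iNKT1 and 0.87 to 2.22 elsewhere, and the one at chr9:96740922-96741421 measured 3.23 to 3.90 in iNKT1 and 1.54 to 2.75 elsewhere. They were 1.91 ± 0.28 and 1.90 ± 0.27 higher in C57BL/6 iNKT1 than iNKT17 (limma, adjusted p = 6.12e-05 and 5.30e-05). The fourth, at chr9:96699587-96700086, was lowest in C57BL/6 iNKT17 and is described with the genotype.

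A further iNKT17 locus was the exon shared by Zbtb8a and Zbtb8os (chr4:129354170-129354669). It measured 3.41 and 3.38 in C57BL/6 and 2.44 and 3.38 in Hivep3-/- iNKT17 cells, and 0.40 to 2.30 in the rest. The C57BL/6 difference of -1.62 ± 0.40 between iNKT1 and iNKT17 (limma, adjusted p = 0.00344) was close to the 3-fold limit and fell below it without C57BL/6 iNKT1 replicate 2 (-1.53).

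Of the 8 regions highest in iNKT1, 3 were the Zbtb38 introns and the others lay at Zbtb7a, Zbtb10, Zbtb41, Zbtb11 and Zbtb20. The Zbtb7a region 1437 bp upstream of the start (chr10:81133284-81133783) measured 4.91 and 4.92 in C57BL/6 iNKT1, 3.02 and 3.01 in iNKT2 and 2.79 and 2.59 in iNKT17, and Hivep3-/- iNKT1 cells measured 5.07 and 4.83. In C57BL/6 it was 1.90 ± 0.18 higher in iNKT1 than in iNKT2 and 2.22 ± 0.18 higher than in iNKT17 (limma, adjusted p = 2.08e-06 and 3.64e-07). The start of Map2k2 was 4669 bp away.

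In an intron of Zbtb10 (chr3:9270726-9271225), iNKT1 libraries measured 3.28 to 3.82, and no other library passed 2.45. C57BL/6 iNKT1 cells were 2.07 ± 0.39 above iNKT2 and 3.84 ± 0.39 above iNKT17 (limma, adjusted p = 0.00067 and 2.34e-06). Upstream of Zbtb41 (chr1:139413442-139413941), iNKT1 libraries measured 3.35 to 3.57 against 1.27 to 2.40 elsewhere, a difference of 2.16 ± 0.28 from iNKT2 in C57BL/6 (limma, adjusted p = 3.25e-05). Upstream of Zbtb11 (chr16:55964490-55964989), C57BL/6 iNKT1 cells measured 3.29 and 3.22, the other C57BL/6 libraries 0.55 to 1.66, and Hivep3-/- iNKT1 cells 2.70 and 2.66. That region was 1286 bp from the start of Rpl24. Downstream of Zbtb20 (chr16:43650276-43650775), 13371 bp from the start of Tigit, iNKT1 libraries measured 3.35 to 3.85 and all others 1.82 to 2.91. Its difference of 1.60 ± 0.29 from iNKT2 (limma, adjusted p = 0.000507) fell below 3-fold without C57BL/6 iNKT1 replicate 1 (1.41) or without C57BL/6 iNKT2 replicate 2 (1.48).

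Bcl6 had 10 regions, 8 of which passed the test between iNKT1 and iNKT2 at any fold but not at 3-fold, and they were looked at after their values were seen. In C57BL/6, 5 of its 6 intron regions were higher in iNKT1 than in iNKT2 (0.66 to 1.12), all 3 upstream regions were lower (-0.53, -0.89 and -1.43), and the promoter measured 0.25 ± 0.28 more (limma, adjusted p = 0.479). The intron region with the smallest adjusted p (chr16:23984732-23985231) measured 6.88 and 6.65 in C57BL/6 iNKT1, 5.82 and 5.49 in iNKT2 and 6.03 and 5.79 in iNKT17, a difference of 1.11 ± 0.13 from iNKT2 and 0.86 ± 0.13 from iNKT17 (limma, adjusted p = 1.35e-05 and 8.85e-05). The upstream region 8310 bp from the start (chr16:23997162-23997661) measured 2.84 and 2.79 in C57BL/6 iNKT2, 1.56 and 1.21 in iNKT1 and 1.23 and -0.88 in iNKT17. In Hivep3-/- cells it measured 3.35 and 3.29 in iNKT2, 2.62 and 2.83 in iNKT1 and -0.10 and -0.55 in iNKT17. The C57BL/6 difference between iNKT2 and iNKT17 was 2.64 ± 0.51 (limma, adjusted p = 0.000784).

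**Figure D4:**
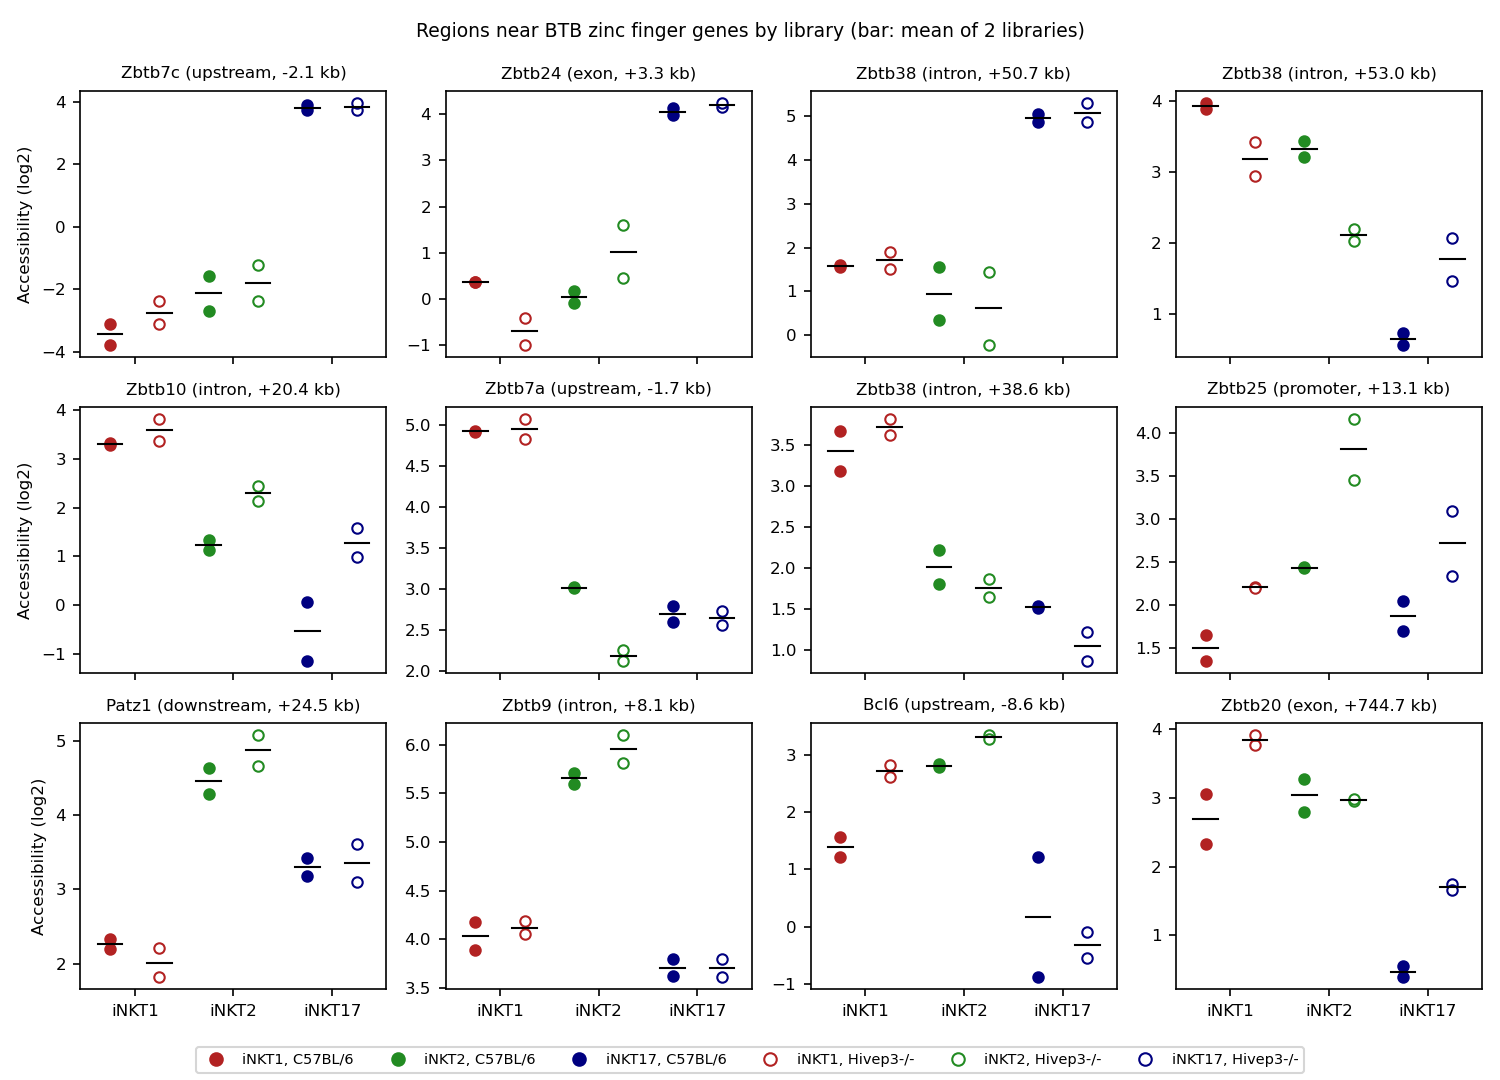
Log2 accessibility (y axis, a separate scale in each panel) of 12 regions in each library, by subset, with C57BL/6 filled and Hivep3-/- open and a bar at the mean of 2 libraries. Panel titles give the gene, the location and the distance of the region's centre from the 5′ end of the gene. The upper left panels show iNKT17 regions such as Zbtb24 at 3.97 to 4.24, and the right column shows the regions that changed with genotype.

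Of the 9 called regions that were highest in iNKT2, those with the highest iNKT2 levels lay at Patz1, Zbtb34, Zbtb9, Zbtb2 and Zbtb40. Downstream of Patz1 (chr11:3313152-3313651), C57BL/6 iNKT2 cells measured 4.63 and 4.28, iNKT17 cells 3.43 and 3.17 and iNKT1 cells 2.33 and 2.19. The iNKT1 to iNKT2 difference was -2.19 ± 0.24 (limma, adjusted p = 6.96e-06). A second Patz1 flank region (chr11:3309756-3310255) was low only in iNKT1, at 2.11 to 2.67 against 3.54 to 4.11. Its iNKT1 to iNKT17 difference of -1.62 ± 0.23 (limma, adjusted p = 5.27e-05) fell below 3-fold without C57BL/6 iNKT1 replicate 1 (-1.36). The region downstream of Zbtb34 (chr2:33403683-33404182) was likewise low in iNKT1, at 2.70 to 3.10, and measured 3.94 to 5.39 in the other libraries.

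The Zbtb9 intron region (chr17:26981067-26981566) measured 5.60 and 5.71 in C57BL/6 and 6.10 and 5.81 in Hivep3-/- iNKT2 cells, and 3.61 to 4.19 in the rest. It was 1.95 ± 0.16 higher in C57BL/6 iNKT2 than in iNKT17 (limma, adjusted p = 5.82e-07) and 1.62 ± 0.16 higher than in iNKT1, that is -1.62 for iNKT1 minus iNKT2 (limma, adjusted p = 2.80e-06). The latter was at the 3-fold limit and fell below it without C57BL/6 iNKT1 replicate 1 (-1.48) or iNKT2 replicate 2 (-1.56). The nearest starts of Zbtb9 and of its overlapping neighbour Ggnbp1 were both 7850 bp away. The Zbtb2 region (chr10:4357386-4357885), 9618 bp from the start of Akap12, measured 5.11 to 5.24 in iNKT2 and 2.50 to 4.12 elsewhere.

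Smaller iNKT2 openings lay in an exon of Zbtb1 (chr12:76384984-76385483) and in an intron of Zbtb17 (chr4:141446050-141446549). The Zbtb1 exon measured 3.17 to 3.77 in iNKT2 and 1.11 to 2.20 elsewhere, a C57BL/6 difference of -2.26 ± 0.34 for iNKT1 minus iNKT2 (limma, adjusted p = 9.21e-05). The Zbtb17 intron measured 2.99 to 3.53 in iNKT2 and 1.02 to 2.08 elsewhere, with a difference of -2.00 ± 0.34 from iNKT1 (limma, adjusted p = 0.000263). Its difference from iNKT17, 1.68 ± 0.34 (limma, adjusted p = 0.00104), fell below 3-fold without C57BL/6 iNKT2 replicate 2 (1.54) or iNKT17 replicate 1 (1.35). At Zbtb32, the upstream region (chr7:30599917-30600416) passed the test at any fold only. It measured 5.00 and 5.29 in C57BL/6 iNKT2, 4.60 and 4.76 in iNKT17 and 3.89 and 3.85 in iNKT1, with -1.28 ± 0.16 for iNKT1 minus iNKT2 (limma, adjusted p = 2.32e-05).

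Other regions were set apart by being low in iNKT17. The Zbtb40 intron region (chr4:137042671-137043170) measured 4.41 and 4.15 in C57BL/6 iNKT2, 3.13 and 3.62 in iNKT1, and -0.20 and 2.13 in iNKT17. Its iNKT1 to iNKT17 difference of 2.41 ± 0.53 (limma, adjusted p = 0.00159) rested on 1 library, being 1.24 without C57BL/6 iNKT17 replicate 1. The Zbtb20 exon region (chr16:43620312-43620811) measured 0.39 and 0.55 in C57BL/6 iNKT17 against 2.33 to 3.28 in the other C57BL/6 libraries.

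The subset pattern was kept in Hivep3-/- cells for most of these regions. The Hivep3-/- comparisons called 14 of 192 member regions between iNKT1 and iNKT2 (7.29%, against 17.3% of all), 17 of 197 between iNKT1 and iNKT17 (8.63%, against 19.3%) and 13 of 194 between iNKT2 and iNKT17 (6.70%, against 15.6%). In all they called 30 regions at 20 members, and 24 regions were called in both genotypes, that is 24 of the 27 in C57BL/6 (88.9%, against 80.6% of all regions called there) and 24 of the 30 in Hivep3-/- (80.0%, against 80.9%). Comparison by comparison, 8, 14 and 12 regions were called in both genotypes, and each of these had the same sign in both. Of the 27 C57BL/6 regions, 25 had the same highest subset in Hivep3-/-. The exceptions were the Patz1 region at chr11:3309756-3310255 and the Zbtb20 exon. For the counts by comparison and for the highest subset, the share of all regions was not computed. These counts therefore cannot be read as particular to the members.

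The comparison of the genotypes asked whether loss of Hivep3 altered the chromatin of the family. No member region was called at 3-fold in any subset: 0 of 184 in iNKT1 (1.12% of all regions), 0 of 185 in iNKT2 (1.63%) and 0 of 186 in iNKT17 (0.278%), and 0 of 200 on the average of the subsets (0.529%). At an unadjusted p under 0.05 there were 22, 31, 19 and 37 regions. The share of all regions at that level was not computed, so these counts show no excess or lack. At any fold, limma called 5 regions in iNKT1 (2.72%, against 9.54%), 17 in iNKT2 (9.19%, against 16.6%), 1 in iNKT17 (0.538%, against 4.82%) and 24 on average (12.0%, against 19.7%). Of the 24, 19 were higher in Hivep3-/- (10.5% of all) and 5 lower (9.21% of all), at 14 members. The median log2 change of the member regions was 0.01 in iNKT1, -0.01 in iNKT2, 0.00 in iNKT17 and 0.00 on average, and that of all regions was -0.02, -0.00, -0.01 and -0.01. The changes named next are past an adjusted p of 0.1 and below 3-fold, and those in a single subset were chosen after their values were seen.

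**Figure D5:**
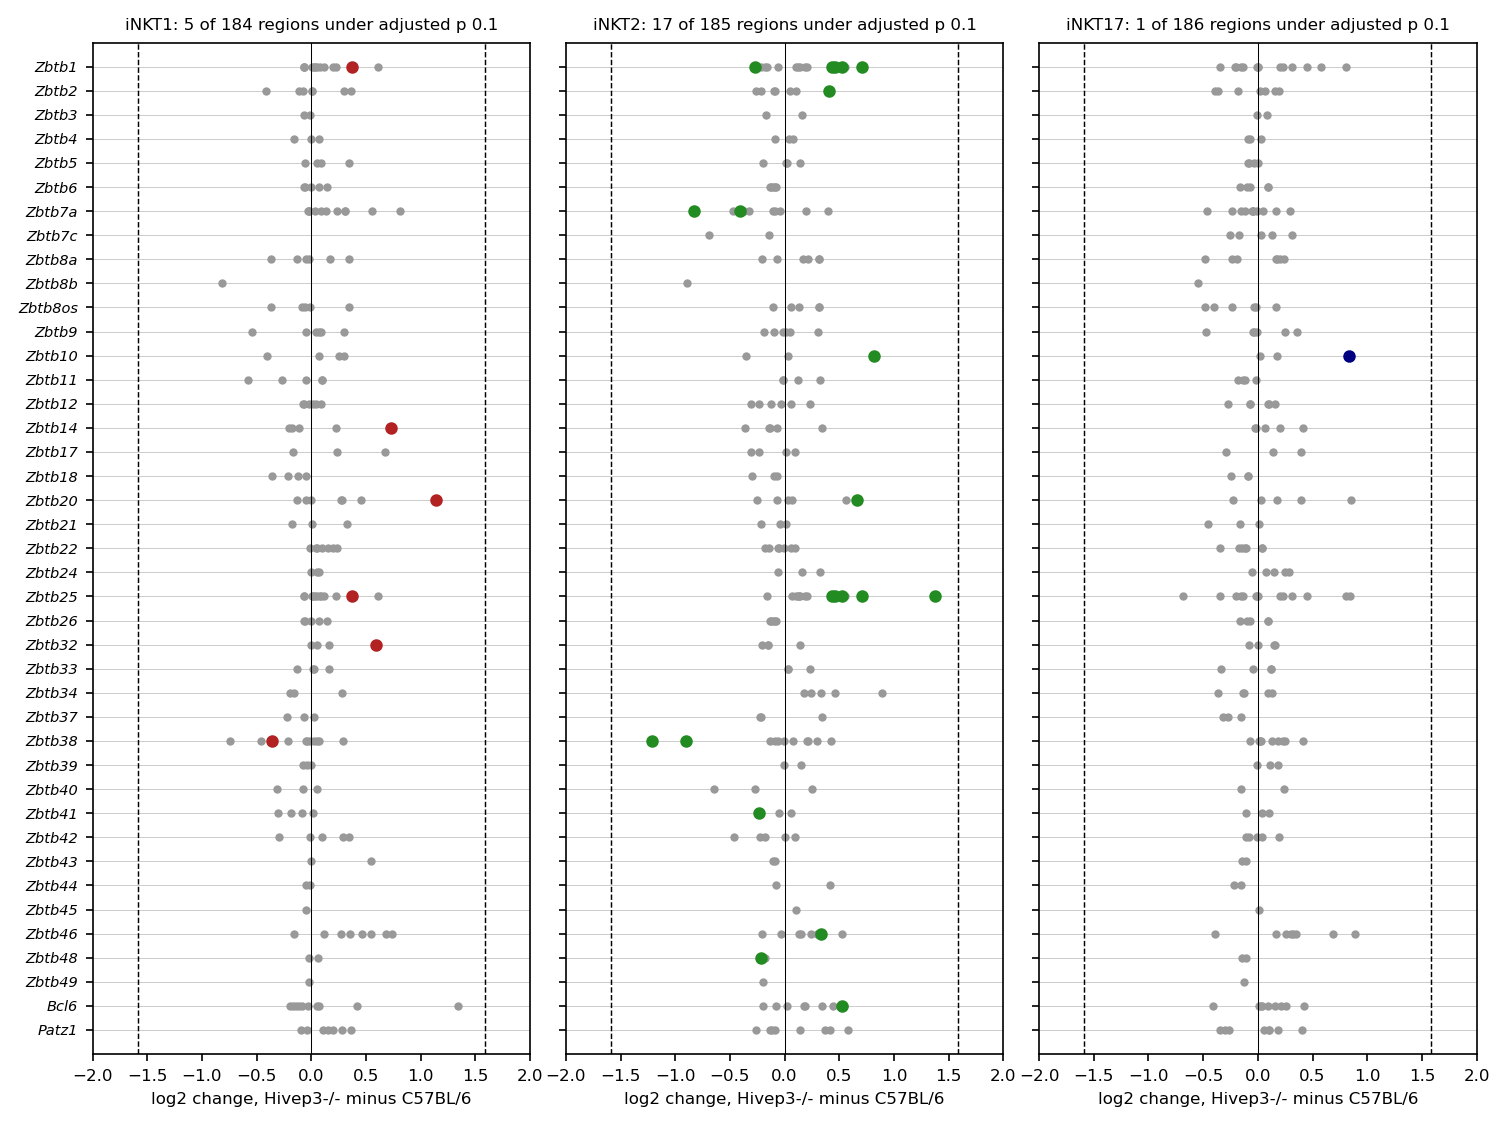
log2 change of each region (x axis, Hivep3-/- minus C57BL/6) at each of the 41 genes in iNKT1, iNKT2 and iNKT17 cells. Coloured points have an adjusted p under 0.1, grey points do not, and dashed lines mark 3-fold. No point passes a dashed line, and 5, 17 and 1 regions are coloured (a region shared by 2 genes is drawn at both).

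The rise with the smallest adjusted p was at the neighbours Zbtb1 and Zbtb25, which are read in opposite directions from 1 shared promoter. Within Zbtb25, 392 bp from the start of a shorter transcript (chr12:76356249-76356748), C57BL/6 cells measured 1.35 and 1.66 in iNKT1, 2.44 and 2.44 in iNKT2 and 1.71 and 2.05 in iNKT17. Hivep3-/- cells measured 2.22 and 2.21, 4.17 and 3.46, and 2.35 and 3.10, higher than C57BL/6 in each subset without overlap. All iNKT1 values were below the accessible level, so the region was not tested there between genotypes. The average change was 0.98 ± 0.18 (limma, adjusted p = 0.00357), and adjusted p was 0.00185 to 0.0133 with each of the 12 libraries left out. The change in iNKT2 was 1.38 ± 0.31 (limma, adjusted p = 0.0131, and 0.123 without Hivep3-/- iNKT2 replicate 1). At the intron region chr12:76374019-76374518 the average change was 0.65 (limma, adjusted p = 0.0228), and at chr12:76362950-76363449 it was 0.51 (limma, adjusted p = 0.0222). The shared promoter itself changed by 0.07 on average (limma, adjusted p = 0.85).

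Zbtb10 and Zbtb20 also rose. In the Zbtb10 intron that was open in iNKT1, Hivep3-/- cells measured 2.14 and 2.45 in iNKT2 and 0.99 and 1.57 in iNKT17, where C57BL/6 cells measured 1.13 and 1.34 and 0.06 and -1.15. The average change was 1.06 ± 0.23 (limma, adjusted p = 0.00775). In iNKT1, the subset where the region was open, the change was 0.30 ± 0.39 (limma, adjusted p = 0.811). In iNKT2 and iNKT17 neither genotype's mean reached the accessible level, so the region was not tested there between genotypes. A second Zbtb10 intron region (chr3:9259527-9260026) changed by 0.82 in iNKT2 and 0.83 in iNKT17 (limma, adjusted p = 0.0448 and 0.0883), the latter being the only member region past the test in iNKT17. Of these, the iNKT17 change lost significance whichever of its 4 libraries was left out (adjusted p 0.126 to 0.404), and the iNKT2 change without any but Hivep3-/- replicate 2 (up to 0.205). On average the region changed by 0.64 (limma, adjusted p = 0.00959, and at most 0.0451 with each of the 12 libraries left out). In the Zbtb20 exon, iNKT1 cells went from 2.33 and 3.06 to 3.76 and 3.91 and iNKT17 cells from 0.39 and 0.55 to 1.74 and 1.66, while iNKT2 cells stayed at 2.80 and 3.28 against 2.96 and 2.98. The average change was 0.77 ± 0.16 (limma, adjusted p = 0.00789), and that in iNKT1 1.14 ± 0.28 (limma, adjusted p = 0.0279). The iNKT1 change lost significance without any of its libraries but C57BL/6 replicate 2 (adjusted p up to 0.33). The iNKT17 values were all below the accessible level, so the Zbtb20 exon was not tested there between genotypes.

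Falls were fewer. The Zbtb8b promoter measured 3.36 and 3.47 in C57BL/6 and 2.57 and 2.63 in Hivep3-/- iNKT1 cells, 2.01 and 2.81 against 2.20 and 0.84 in iNKT2, and 3.46 and 3.26 against 2.84 and 2.79 in iNKT17. Its average change was -0.75 (limma, adjusted p = 0.0343), and adjusted p stayed under 0.1 in 11 of 12 fits with 1 library left out, the exception being 0.1 without C57BL/6 iNKT2 replicate 2. Zbtb8b lies 9.29 Mb from Hivep3 on chromosome 4. Zbtb8os and Zbtb8a lie closer, at 9.2 and 9.22 Mb. Their most accessible promoter regions changed by -0.06 and -0.15 on average (limma, adjusted p = 0.295 and 0.406). Whether distance to Hivep3 plays a part was not tested. In iNKT2 cells alone, the Zbtb7a upstream region went from 3.02 and 3.01 to 2.25 and 2.12, a change of -0.83 ± 0.18 (limma, adjusted p = 0.00994). An alternative promoter of Zbtb38 (chr9:96718824-96719323) went from 3.50 and 3.70 to 2.72 and 2.68 in iNKT2, a change of -0.90 (limma, adjusted p = 0.00917). Both kept an adjusted p under 0.1 with each of the 4 libraries left out. The fall at Zbtb38 was not shared by the region beside it (chr9:96719351-96719850), the more accessible promoter region of the gene. Its change in iNKT2 was 0.21 ± 0.26 (limma, adjusted p = 0.68).

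At Bcl6, the intron region chr16:23984732-23985231 was 0.52 higher in Hivep3-/- iNKT2 (6.29 and 6.07) than in C57BL/6 iNKT2 (5.82 and 5.49; limma, adjusted p = 0.0219). This call was lost without C57BL/6 iNKT2 replicate 2 or without Hivep3-/- iNKT2 replicate 1 (adjusted p up to 0.204). In the upstream region the 1.34 ± 0.52 difference in iNKT1 (2.62 and 2.83 against 1.56 and 1.21) did not pass the test (limma, adjusted p = 0.171). At Patz1 no region passed the genotype test in any subset or on average.

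Whether the genotype difference itself depended on the subset was tested by interactions. Between iNKT1 and iNKT17, 1 of 197 member regions was called (1.43% of all regions), and between iNKT2 and iNKT17, 1 of 195 (1.03%). Both were the Zbtb38 intron region at chr9:96699587-96700086. There, iNKT1 cells measured 3.97 and 3.88 in C57BL/6 and 3.43 and 2.94 in Hivep3-/-, and iNKT2 cells 3.21 and 3.44 and 2.03 and 2.20. The fall of -1.21 in iNKT2 passed the test (limma, adjusted p = 0.0127, and 0.103 without C57BL/6 iNKT2 replicate 2), and the difference of -0.74 in iNKT1 did not (limma, adjusted p = 0.143). iNKT17 cells measured 0.57 and 0.74 in C57BL/6 and 2.08 and 1.47 in Hivep3-/-, all below the accessible level, so the region was not tested there between genotypes. The genotype difference in iNKT2 minus that in iNKT17 was -2.33 ± 0.39 (limma, adjusted p = 0.0134, and 0.00913 to 0.0619 with each library left out). The difference in iNKT1 minus that in iNKT17 was -1.86 ± 0.39 (limma, adjusted p = 0.0298). The latter lost the call without C57BL/6 iNKT1 replicate 1 (adjusted p = 0.115), without Hivep3-/- iNKT1 replicate 2 (0.167) or without Hivep3-/- iNKT17 replicate 1 (-1.56, under 3-fold). It also lost the call with a pseudocount of 1 (-1.47, under 3-fold; limma, adjusted p = 0.0222). In the blocked fit, adjusted p was 0.00925 and 0.00186 for the 2 interactions, and 2 and 1 regions were called. The added one was the Bcl6 upstream region, at 1.83 ± 0.73 (limma, adjusted p = 0.258, and 0.098 with the block), which was 2.89 (adjusted p = 0.0207) without C57BL/6 iNKT17 replicate 2.

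Between iNKT1 and iNKT2, 0 of 193 regions were called (3.02% of all regions), with 24 at an unadjusted p under 0.05 (share of all regions not computed). At any fold limma called 7 regions in this interaction (10.5% of all), 1 in that of iNKT1 with iNKT17 (3.65%) and 2 in that of iNKT2 with iNKT17 (3.34%). With the replicate block, which pairs same-numbered subsets, the counts were 22, 10 and 6. The share of all regions was not computed with the block, so this rise cannot be read as particular to the members.

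Related genes and partners of the family were described in the same way. For 5 BTB zinc finger genes under other names (Hic1, Hic2, Gzf1, Mynn and Zfp131), 0 of 26 regions were called in any subset, and 0, 3 and 0 passed at any fold in iNKT1, iNKT2 and iNKT17 (against 9.54%, 16.6% and 4.82% of all regions). On the average of the subsets 4 passed at any fold (15.4%, against 19.7%). Between the C57BL/6 subsets 1 of the 26 was called in each comparison (3.85%, against 16.0%, 20.5% and 16.2% of all regions). For 6 corepressors and partners (Ncor1, Bcor, Bcorl1, Hdac3, Cul3 and Sin3a), 0 regions were called in any subset, and 0 of 59, 4 of 58 and 2 of 58 passed at any fold, of which 0, 3 and 2 were higher in Hivep3-/-. On average 11 of 60 passed (18.3%, against 19.7%), 9 of them higher. Between the C57BL/6 subsets 1 of 59, 2 of 59 and 1 of 56 of their regions were called (1.69%, 3.39% and 1.79%). Promoters of all 11 genes were open in every library, the lowest value being 5.59 at Hdac3, which encodes a histone deacetylase that works with NCoR. In the interactions, 1 corepressor region was called, between iNKT1 and iNKT17 (1 of 59, 1.69%, against 1.43% of all regions).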

How the data were processed

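Accessible chromatin was measured by ATAC-seq in 12 libraries, 2 for each of 6 groups. The authors trimmed reads with Trimmomatic (version 0.39 in the submitters' processing notes) and mapped them to mm10. They merged peaks of all replicates into regions of 500 bp, counted insertions and normalised them with voom. The deposited values are log2 of normalised insertions per kb. Depth could not be read from them, since linear library sums were near equal by construction (1915051 to 1919037), and a library held 73 to 491 different values up to its median, which limits precision at low levels. All value columns could be assigned to samples.

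Values were fitted with limma 3.58.1 (R 4.3.3; eBayes with a variance trend), with 1 mean per group over all 12 libraries, where 1 of the compared groups reached a linear mean of 5. P-values were two-sided and Benjamini-Hochberg adjusted over all regions tested. A called region had both a 3-fold difference and an adjusted p under 0.1. Fits were also run on simulated data with known changes and independent libraries. That run does not cover the deviations shared by same-numbered libraries, which are given below. Tables and figures were made with matplotlib 3.10.9, pandas 2.3.3 and numpy 2.4.6 under Python 3.11.15. Gene models were GENCODE vM21.

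Same-numbered libraries of 1 genotype come from the same number in the labels, and their deviations from the group means correlated (r 0.163 to 0.237 across regions), so subset comparisons and interactions were also fitted with the replicate number as a block. The members, lists and tests were chosen with earlier results of these data known. For 2 of the lists, 1 gene each is not reported here, and the list's values were computed without it. Named regions were those called between genotypes or in an interaction, for each C57BL/6 comparison and member the called region with the largest change (at most 12 members), the most accessible promoter of 10 lymphocyte genes, and the members with the most and fewest regions and the highest and lowest promoters. Other regions were named after their values were seen. Alternatives were a pseudocount of 1, 2 filters, median centring, no variance trend, only the compared libraries, 2-fold, no flanks, the block and leaving out each library.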

Additional observations from a re-analysis of the deposited data

Results flagged for a closer look

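For 10 combinations of a region and a pair of subsets, the genotype difference differed between the subsets at an adjusted p under 0.1 (limma interaction). Each value is the genotype difference (Hivep3-/- minus C57BL/6, log2) in the first subset minus that in the second. At Zbtb38, the intron region chr9:96699587-96700086 gave -1.86 for iNKT1 against iNKT17 and -2.33 for iNKT2 against iNKT17 (limma, adjusted p = 0.0298 and 0.0134). Its alternative promoter chr9:96718824-96719323 gave 0.96 for iNKT1 against iNKT2 and -1.32 for iNKT2 against iNKT17 (limma, adjusted p = 0.0555 and 0.0356), and the region starting at position 96696191 gave -0.44 for iNKT1 against iNKT2 (limma, adjusted p = 0.0261).

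The other regions were flagged between iNKT1 and iNKT2. Zbtb7a gave 0.86 at its upstream region (start 81133284) and 1.03 at the next one (start 81134170; limma, adjusted p = 0.0659 and 0.0632). Zbtb20 gave 1.21 at its exon region, start 43620312 (limma, adjusted p = 0.0941), Bcl6 gave -0.56 at the intron region with start 23984732 (limma, adjusted p = 0.0965), and Zbtb1 gave 0.48 at the region with start 76403825, which lies at the start of Hspa2 (limma, adjusted p = 0.0128). With each of the 8 libraries left out, adjusted p stayed under 0.1 in all 8 fits for Zbtb1 and for Zbtb38 intron chr9:96699587-96700086 between iNKT2 and iNKT17. It did so in 1 of 8 fits for each Zbtb7a region, 2 for Zbtb20 and 3 for Bcl6. At Zbtb38 it did so in 6 of 8 fits for the intron region between iNKT1 and iNKT17, in 3 and 6 for the alternative promoter, and in 7 for the region starting at 96696191.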

How the results depend on the processing

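No direction of a called named region turned under any alternative run, and median centring and dropping the filter changed no named call. The filter on the mean over all libraries changed none of the 296 named results it tested and left 27 untested, of which 10 had been called. A pseudocount of 1 took 16 of 323 named results below the threshold. At 2-fold, calls were 1 (iNKT1), 2 (iNKT2) and 1 (average) between genotypes, 31, 31 and 26 between C57BL/6 subsets, 33, 28 and 31 between Hivep3-/- subsets (in the order iNKT1 against iNKT2, iNKT1 against iNKT17, iNKT2 against iNKT17), and 2 in the interactions iNKT1 against iNKT2 and iNKT2 against iNKT17. Without a filter, or with the mean taken over all libraries, 1 region was called between genotypes in iNKT17 (4 at any fold) and 1 in the iNKT1 against iNKT2 interaction, and the latter filter gave 11 for Hivep3-/- iNKT1 against iNKT17. With the pseudocount, counts were 8 for Hivep3-/- iNKT1 against iNKT2 and 0 for the iNKT1 against iNKT17 interaction (2 at any fold), and at any fold between genotypes 8 in iNKT1 and 2 in iNKT17. Without the variance trend, any-fold counts were 3 for the genotype in iNKT17 and 4 for the iNKT1 against iNKT2 interaction. With only the compared libraries, any-fold genotype counts were 22, 11 and 0 in iNKT1, iNKT2 and iNKT17. Gene bodies without flanks left fewer regions: 5 calls for C57BL/6 iNKT1 against iNKT2, 5, 10 and 8 between Hivep3-/- subsets, and at any fold 50, 45 and 41 in C57BL/6, 49, 50 and 44 in Hivep3-/-, 3 and 11 between genotypes in iNKT1 and iNKT2, and 4 in the iNKT1 against iNKT2 interaction.

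The labels do not pair mice of different genotypes, although same-numbered libraries of the 2 genotypes deviated together (r 0.149 to 0.225) about as much as those of 1 genotype (0.163 to 0.237). With the replicate block, any-fold genotype counts were 17, 36 and 14 in iNKT1, iNKT2 and iNKT17 and 42 on average. The block, which pairs the subsets, gave 22, 10 and 6 any-fold interactions and 2 called between iNKT1 and iNKT17 (the added one at Bcl6), and changed no other named call. Shares of all regions were not computed with the block or at 2-fold.

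With 1 library left out at a time, genotype calls ranged from 0 to 0, except 0 to 1 in iNKT2 (1 without Hivep3-/- iNKT2 replicate 2), and at any fold from 0 to 3, 6 to 12 and 0 to 6 in iNKT1, iNKT2 and iNKT17 and 15 to 29 on average. Subset calls were 9 to 13, 17 to 19 and 14 to 15 in C57BL/6 (any fold 73 to 78, 68 to 73, 53 to 64) and 12 to 15, 16 to 17 and 10 to 16 in Hivep3-/- (any fold 69 to 80, 71 to 88, 69 to 84). Interactions were 0 to 0, 0 to 2 and 1 to 3 (any fold 1 to 6, 0 to 4, 1 to 4). A lone library was assumed to vary like the other groups. The cause of these changes was not tested, and depth could not be read from the values.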

Other observations

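Some member regions differed in 1 direction between the replicate numbers in every group. Of 194 accessible member regions, 29 (14.9%) were higher in replicate 2 than in replicate 1 in all 6 groups, against 7.76% of 56928 accessible regions, and 9 (4.64%) were lower in all 6, against 8.07%. Of the 29, 24 were at member promoters (80 of all 200 member regions were), among them the shared promoter of Zbtb1 and Zbtb25 (0.45 to 0.71 higher, log2). The Zbtb46 promoter was the only member region over 1.5-fold higher in all 6 groups. The median GC content of the 29 regions was 70.2%, that of the 9 was 54.2%, and that of all accessible regions was 50.4%. The whole table had a like pattern. The median was 65.4% for the 4419 accessible regions higher in replicate 2 and 50.4% for the 4594 lower. The part of these differences in the comparisons was not tested.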
